A study of Homo sapiens with 4 samples.

Results

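The cytosolic ribosomal protein genes are here the protein-coding genes whose symbol is RPL or RPS (large or small subunit) followed by a number, with at most 1 letter (A, X, Y or L) after it and optionally a further number, together with RPLP0, RPLP1, RPLP2 and RPSA. Picked by symbol alone, without kinases, readthrough genes or pseudogenes, they came to 85 of the 64252 genes in the deposited table, 52 for the large subunit and 33 for the small. They were measured by RNA sequencing in the human neuroblastoma cell line SK-N-BE(2). In the shIGF2BP3 group (2 libraries) the cells carried a short hairpin that targets IGF2BP3 mRNA, and in the shControl group (2 libraries) a control hairpin. IGF2BP3 binds mRNAs that bear the m6A methyl mark, and the series title ties it to the stability of E2F2 mRNA. The labels give no hairpin sequence, dose or time, and do not say whether the cells were a clone or a pool.

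A ribosome is built from ribosomal RNAs and a large set of ribosomal proteins, which the cell needs in matched amounts, since unassembled copies are degraded. The small subunit reads the mRNA and the large subunit joins amino acids and passes the new chain out through an exit tunnel. Ribosomal protein mRNAs are among the most abundant in growing cells. Most begin with a C followed by a run of pyrimidines, the TOP (terminal oligopyrimidine) tract, through which mTOR signalling and LARP1 control their translation and stability. MYC family proteins, MYCN in many neuroblastomas, are known to drive their transcription.

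The start sites of some genes whose levels are described below are shown because they place the pyrimidine tract of a typical member beside the starts of 4 paralogues, of which RPL22L1 carries it and RPL26L1, RPL7L1 and RPS27L do not. Each line runs 5′ to 3′ over 30 bases, of which 10 precede the annotated start, from the RefSeq promoter table on GRCh38.p14. Capitals mark an unbroken run of pyrimidines that begins with a C at the start site and goes on for at least 4 more. The first 4 are genes that fell after knockdown: RPL34 (chr4:108620566-108620595, plus strand), RPS3 (chr11:75399508-75399537, plus), RPSA (chr3:39406710-39406739, plus) and RPS25 (chr11:119018324-119018353, minus). Then come 3 that rose: RPS12 (chr6:132814559-132814588, plus), RPS27 (chr1:153990752-153990781, plus) and RPL10 (chrX:154398367-154398396, plus). The last 4 are paralogues: RPL22L1 (chr3:170870176-170870205, minus), RPL26L1 (chr5:172958719-172958748, plus), RPL7L1 (chr6:42879606-42879635, plus) and RPS27L (chr15:63157458-63157487, minus).
RPL34: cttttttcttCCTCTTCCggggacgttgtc
RPS3: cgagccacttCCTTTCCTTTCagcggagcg
RPSA: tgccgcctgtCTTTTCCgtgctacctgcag
RPS25: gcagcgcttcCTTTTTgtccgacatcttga
RPS12: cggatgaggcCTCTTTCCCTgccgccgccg
RPS27: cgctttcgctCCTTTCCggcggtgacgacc
RPL10: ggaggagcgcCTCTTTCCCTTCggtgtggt
RPL22L1: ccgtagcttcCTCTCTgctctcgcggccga
RPL26L1: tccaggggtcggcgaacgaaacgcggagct
RPL7L1: gtgcggcgccgtagctaggagcggacgcca
RPS27L: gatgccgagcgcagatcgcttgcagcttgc

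The promoter table held 68 of the 85 genes. Of these, 48 (70.6%) had such a tract exactly at an annotated start, against 988 of 15843 protein-coding genes (6.24%). Allowing a start up to 5 bases either side, the share was 80.9% of the ribosomal protein genes against 28.0% of all genes. Among paralogues, 2 of 6 had the tract at the start, against 46 of 62 other members. The sequence is read on the gene's own strand, and a match describes the window and no more.

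Library totals ran from 26755695 to 31946756 counts. Levels below are CPM, counts scaled to a common library size by TMM, a method that centres on the bulk of genes, so they are relative to the other mRNAs and not amounts per cell. In bulk RNA, fewer cells of a type and less RNA per cell cannot be told apart. IGF2BP3 itself stood at 28.7 and 31.9 CPM after knockdown and at 156.5 and 138.9 CPM in shControl. All 10 neuroblastoma markers exceeded 1 CPM in every library, and their summed level was 5934 to 6336 CPM in shIGF2BP3 and 7776 to 8082 in shControl. Summed fibroblast markers, 5 of 6 over 1 CPM in every library, were 707 to 723 against 546 to 578 CPM, and 5 Schwann cell markers were 9.21 to 9.44 against 5.24 to 5.56 CPM. The 4 leukocyte markers summed to at most 3.32 CPM and the 4 epithelial markers to at most 6.68 CPM, with CD3E, SOX10, KRT5 and KRT14 at 0 counts in all libraries. The part of these markers in the results below was not tested.

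The ribosomal protein genes took a smaller share of the RNA after knockdown. They held 4.60% and 4.33% of all counts with IGF2BP3 knocked down and 5.10% and 4.95% with the control hairpin. The groups did not overlap, and the means were 4.46% ± 0.197 and 5.02% ± 0.108 (SD, n = 2 each). The difference of -0.558 percentage points had an exact permutation p of 0.333, two-sided, which is the smallest that 2 libraries against 2 can give.

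**Figure D1:**
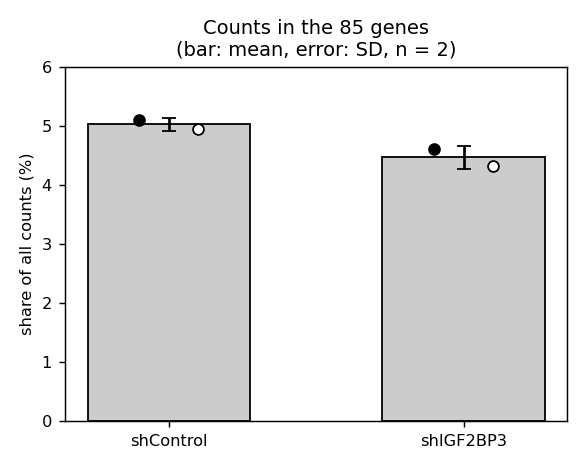
Share of all counts (%, y axis from 0) that fell in the 85 ribosomal protein genes, in shControl and shIGF2BP3. Bars are means, error bars are SD over 2 libraries and dots are libraries; the shIGF2BP3 libraries, at 4.60% and 4.33%, sit below the shControl libraries, at 5.10% and 4.95%.

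By gene, 47 of the 84 tested members were lower (56.0%) and 4 were higher (4.76%), while 33 did not pass. A gene passed when its adjusted p was under 0.05 by the quasi-likelihood test of edgeR, with p-values adjusted over all tested genes by the Benjamini-Hochberg method. Across the 19767 genes tested, 25.6% were lower and 25.9% higher, and among protein-coding genes 31.2% were lower. The untested member, RPL10L, a testis-enriched copy of RPL10, had 0 counts in every library, which allows a level of at most 0.0958 to 0.111 CPM (3 counts, counting error only). The members' median log2 fold change was -0.23, against 0.01 over all genes tested. All shIGF2BP3 values lay under all shControl values in 54 members (64.3%, against 36.7% of all tested genes) and above them in 6 (7.14%, against 37.8%).

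The falls were mostly small and spread over many genes. Of the 47 lower members, 13 fell less than 1.2-fold, 21 fell 1.2- to 1.5-fold, 10 fell 1.5- to 2-fold and 3 fell more than 2-fold. A fall of 1.5-fold or more was seen in 13 of 84 members (15.5%), a share near the 16.2% of all tested genes. The median size of change, whatever its direction, was 0.26 on the log2 scale in these genes and 0.51 over all tested genes. Neither these sizes nor the shares called were matched for the level of the genes, and genes of higher counts can pass at smaller changes. Summed over members, the mean level was 51687 CPM in shControl and 43432 CPM after knockdown. The differences of the 68 members with a lower mean added up to -8954 CPM and those of the 15 with a higher mean to 698.2 CPM. RPS3 alone made up 11.2% of the negative sum, and RPS3, RPS2, RPS7, RPL3 and RPL7A together 33.2%.

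**Figure D2:**
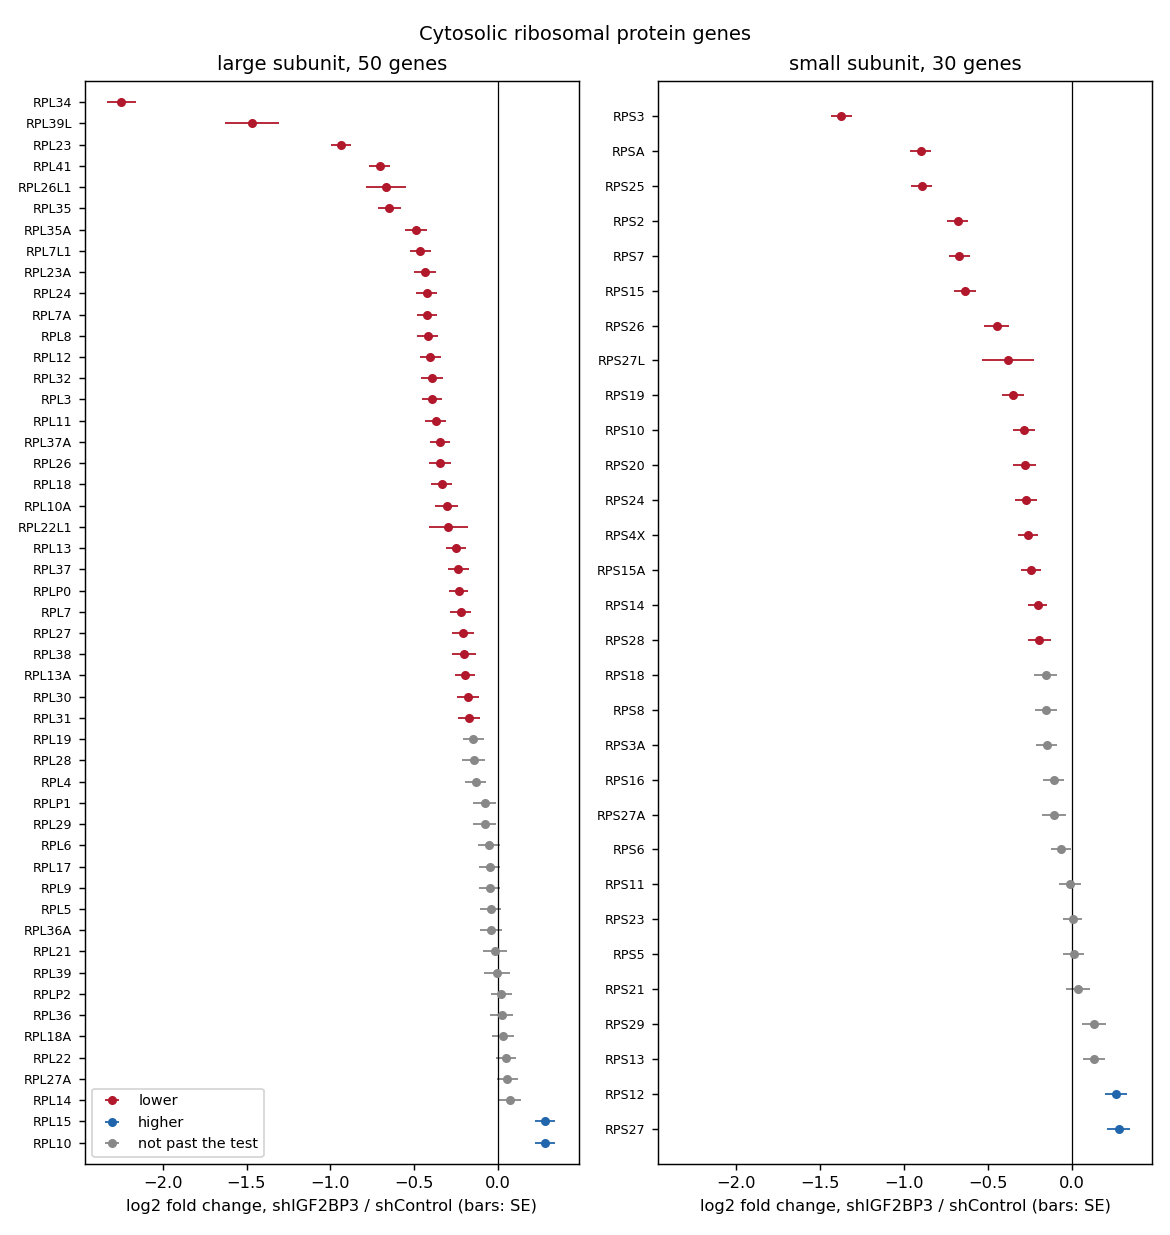
Log2 fold change of shIGF2BP3 over shControl (x axis, bars are SE) for 80 tested ribosomal protein genes, large subunit left and small subunit right, coloured by the call. RPL3L, RPS9 and RPS4Y1, whose SE was over 0.5, are left out, as is 1 gene not reported here; most points sit between -0.5 and 0.3, with RPL34 at -2.25 and RPS3 at -1.37 apart from the rest of the core members.

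The shift was seen in both subunits. In the large subunit 30 of 51 tested members were lower (58.8%) and 2 higher (3.92%), with a median of -0.22. In the small subunit 17 of 33 were lower (51.5%) and 2 higher (6.06%), with a median of -0.24. Of all tested genes, 25.6% were lower and 25.9% higher.

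In the small subunit, the deepest falls were in RPS3, RPSA and RPS25. RPS3 lines the channel through which mRNA enters and also acts in DNA repair. It stood at 661.3 and 602.1 CPM in shIGF2BP3 and at 1667 and 1609 CPM in shControl, so that knockdown libraries kept 38.6% of the control level. The groups were far apart and each pair of libraries close (log2 -1.37, SE 0.06, adjusted p = 8.00e-12, edgeR). The gene lies on chromosome 11, from 75399486 to 75422280 on the plus strand (GENCODE 29, GRCh38). RPSA, which is needed to mature the small subunit and is also known as the laminin receptor, stood at 391.0 and 361.2 against 717.9 and 686.8 CPM (log2 -0.90, SE 0.06, adjusted p = 1.87e-09, edgeR). RPS25, a head protein that viral internal ribosome entry sites depend on, stood at 330.2 and 313.3 against 594.7 and 601.1 CPM (log2 -0.89, SE 0.06, adjusted p = 1.35e-09, edgeR). In neither gene did the groups overlap, and the knockdown mean was 53.6% of the control mean for RPSA and 53.8% for RPS25.

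RPS2, RPS7 and RPS15 had smaller fold changes. RPS2, which sits at the mRNA entry channel, stood at 1147 and 1076 against 1716 and 1842 CPM (log2 -0.68, SE 0.06, adjusted p = 5.04e-08, edgeR). RPS7 (log2 -0.67) and RPS15, a protein near the decoding site (log2 -0.64), were also lower. The mRNA channel and decoding site group held 5 genes, of which RPS3, RPS2 and RPS15 were lower and RPS23 (log2 0.01) and RPS9 (log2 -0.36, SE 0.67) did not pass. The share lower was 60.0%, near the 56.0% of all tested members and beside 25.6% of all tested genes.

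In the large subunit, RPL34 stood apart. It encodes a small protein of the subunit's surface, on chromosome 4 from 108620566 to 108630412 (plus strand). Its level was 73.9 and 61.4 CPM in shIGF2BP3 and 333.2 and 308.9 CPM in shControl, from 2093 and 1684 against 8973 and 9669 counts. Knockdown libraries held 21.1% of the control level, a 4.74-fold fall (log2 -2.25, SE 0.08, adjusted p = 1.65e-12, edgeR). For comparison, the target IGF2BP3 itself fell by 2.28 on the log2 scale in the same libraries. Per kilobase of coding sequence, RPL34 went from 914.7 to 192.7 CPM, whereas the median member without paralogues, RPS9 left out, stood at 1210 CPM in shControl.

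Among large subunit members other than paralogues, RPL23 and RPL41 followed. RPL23, a protein of the subunit interface that also binds the p53 ligase MDM2, stood at 337.4 and 337.3 against 668.0 and 623.3 CPM (log2 -0.94, SE 0.06, adjusted p = 8.74e-10, edgeR). Its gene spans 38847865 to 38853843 on chromosome 17 (minus strand). RPL41, a very short basic peptide, stood at 326.3 and 307.7 against 525.8 and 507.7 CPM (log2 -0.70, SE 0.06, adjusted p = 3.74e-08, edgeR). RPL41 had the highest level per kilobase of coding sequence of all members in shControl, at 6890 CPM, and reached 4226 CPM in shIGF2BP3. RPL35, at the rim of the exit tunnel, fell by 0.65 on the log2 scale.

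**Figure D3:**
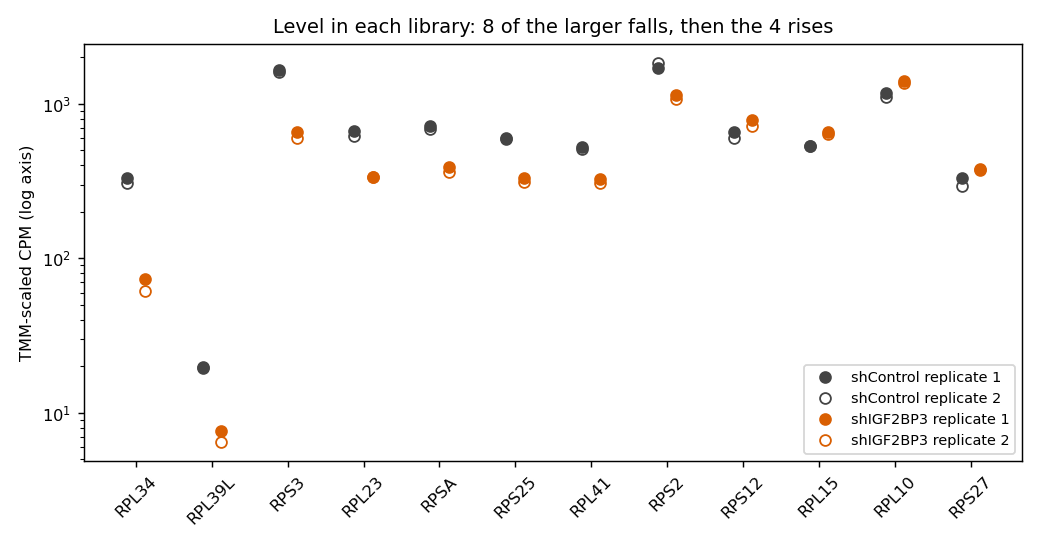
TMM-scaled CPM (log axis) in each of the 4 libraries for 8 of the members that fell most and the 4 that rose, by gene on the x axis. Filled and open circles are replicates 1 and 2, grey for shControl and orange for shIGF2BP3; in these 12 genes no library of a group overlaps the other group.

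The 4 genes that rose did so by about the same small amount. RPL10 joins the large subunit late in its maturation and reaches towards its catalytic centre. It stood at 1409 and 1359 CPM in shIGF2BP3 and at 1177 and 1102 CPM in shControl (log2 0.28, SE 0.06, adjusted p = 0.000747, edgeR). RPL15, a protein of the large subunit core, stood at 654.8 and 640.9 against 536.1 and 532.1 CPM (log2 0.28, SE 0.06, adjusted p = 0.00067, edgeR).

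The small subunit genes that rose were RPS12 and RPS27. RPS12, a head protein of the small subunit, stood at 788.4 and 722.1 CPM in shIGF2BP3 and at 656.3 and 599.5 CPM in shControl (log2 0.27, SE 0.07, adjusted p = 0.00248, edgeR). RPS27, a zinc-finger protein, stood at 380.7 and 373.6 against 329.2 and 292.0 CPM (log2 0.28, SE 0.07, adjusted p = 0.00207, edgeR). The shControl libraries of RPS27 differed from each other, and without shControl replicate 2 its call ended (log2 0.18, adjusted p = 0.0609, edgeR). None of the 4 rose as much as 1.5-fold.

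In the 5 members of most counts, RPL4, RPL3, RPS2, RPLP0 and RPL13, all shIGF2BP3 values lay under all shControl values. The same was true of 64.3% of tested members and of 36.7% of all tested genes. The size of the fall differed. RPL4, which reaches into the exit tunnel with a long loop, stood at 2121 and 2053 against 2387 and 2192 CPM and did not pass (log2 -0.13, SE 0.06, adjusted p = 0.0768, edgeR). Its call changed with the test, since it passed with DESeq2 (adjusted p = 0.0200) and with limma voom (adjusted p = 0.0281). Without shControl replicate 2 its log2 fold change was -0.21. RPL3, a neighbour of the catalytic centre, stood at 1502 and 1381 against 1900.0 and 1882 CPM and fell by 0.39 on the log2 scale. RPL13 stood at 1442 and 1343 against 1664 and 1649.5 CPM and fell by 0.25 on the log2 scale.

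The stalk and the 5S ribonucleoprotein each held genes that fell beside genes that did not pass. RPLP0 anchors the stalk that recruits translation factors, and RPLP1 and RPLP2 are its acidic arms. RPLP0 stood at 1517 and 1455 against 1799.7 and 1699 CPM (log2 -0.24, SE 0.06, adjusted p = 0.00289, edgeR). RPLP1 stood at 977.1 and 867.2 against 1018 and 931.7 CPM, with groups that overlapped (log2 -0.08, SE 0.07). The overlap held too for RPLP2, at 472.8 and 437.1 against 454.6 and 442.5 CPM (log2 0.02, SE 0.06).

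RPL5 and RPL11 carry the 5S RNA into the large subunit and, when free, bind MDM2. RPL5 stood at 787.9 and 752.6 against 815.7 and 772.4 CPM, so the groups overlapped (log2 -0.04, SE 0.06, adjusted p = 0.577, edgeR). RPL11 stood at 421.2 and 395.1 against 526.4 and 530.2 CPM, with no overlap (log2 -0.37, SE 0.06, adjusted p = 6.21e-05, edgeR). Of the 8 members known to join the 5S particle or to bind MDM2, 6 were lower, RPS27 was higher and RPL5 did not pass, with a median of -0.37. The share lower was 75.0%, beside 56.0% of all tested members and 25.6% of all tested genes, and the difference was not tested.

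RPS6, the substrate of the S6 kinases downstream of mTOR, stood at 1186 and 1142 against 1249 and 1181 CPM (log2 -0.06, SE 0.06, adjusted p = 0.412, edgeR). RPS27A, made as a fusion to ubiquitin, stood at 607.9 and 572.3 against 680.3 and 588.4 CPM (log2 -0.10, SE 0.07, adjusted p = 0.239, edgeR). In both genes the ranges of the groups overlapped. RPS27A is another gene whose call rests on a library, since it passed without shControl replicate 2 (log2 -0.22, adjusted p = 0.00896, edgeR).

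RPS19, the gene most often mutated in Diamond-Blackfan anaemia, a congenital red cell failure, stood at 330.6 and 302.0 against 408.5 and 396.6 CPM (log2 -0.35, SE 0.07, adjusted p = 0.000217, edgeR). Of the 16 members tied to that disease, 12 were lower and RPS27 and RPL15 were higher, while RPL5 and RPS29 (log2 0.13) did not pass. The share lower was 75.0%, beside 56.0% of all tested members and 25.6% of all tested genes, and the difference was not tested. Their median log2 fold change was -0.28. At the rim of the exit tunnel, RPL35, RPL23A, RPL26, RPL38 and RPL31 fell, between -0.65 and -0.17 on the log2 scale. The other 4 of 9, RPL19, RPL17, RPL39 and RPL22, did not pass, so that 55.6% were lower, near the share of all tested members.

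Another 27 members were lower, of which RPS7, RPL35 and RPS15 head the list, with log2 fold changes from -0.67 to -0.17 and SE from 0.06 to 0.07. Another 22 members that did not pass had log2 fold changes from -0.15 to 0.13. With the 8 described above they make up the 30 genes without a call whose SE was under 0.5, all between -0.15 and 0.13. The remaining 3 without a call were RPL3L, RPS9 and RPS4Y1, whose SE ran from 0.67 to 0.93.

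Several ribosomal proteins have a second gene that is expressed in few tissues or at low level. Among these paralogues, 5 of 7 tested were lower (71.4%, against 25.6% of all tested genes) and none higher by the edgeR test. Their median was -0.46, against -0.20 for the 77 other members. RPL39L, a copy of the exit tunnel protein RPL39 that is enriched in testis and many tumours, stood at 7.62 and 6.41 CPM in shIGF2BP3 and at 19.6 and 19.3 CPM in shControl (log2 -1.47, SE 0.16, adjusted p = 5.71e-07, edgeR). RPL39 itself overlapped, at 222.7 and 216.7 against 239.8 and 201.9 CPM (log2 -0.01, SE 0.08). RPL39L therefore made up 3.31% and 2.87% of the pair's summed CPM in shIGF2BP3 and 7.56% and 8.74% in shControl.

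RPL26L1, the second gene of RPL26, stood at 17.3 and 18.1 against 27.9 and 28.3 CPM (log2 -0.67, SE 0.12, adjusted p = 0.000146, edgeR). RPL26, a tunnel-rim protein that also binds p53 mRNA, stood at 298.0 and 271.8 against 369.0 and 354.4 CPM (log2 -0.34, SE 0.07, adjusted p = 0.000279, edgeR). Both genes of the pair were lower in both knockdown libraries. RPL7L1, which acts in subunit assembly, stood at 235.0 and 241.5 against 328.5 and 328.3 CPM (log2 -0.46, SE 0.06, adjusted p = 6.73e-06, edgeR). Its partner RPL7 stood at 760.6 and 754.6 against 926.8 and 841.0 CPM (log2 -0.22, SE 0.06, adjusted p = 0.00638, edgeR), and the call of RPL7 ended without shControl replicate 1 (adjusted p = 0.0799, edgeR) and with scaling by library totals (adjusted p = 0.0514).

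RPL22L1, a copy of the RNA-binding protein RPL22 that can replace it, stood at 25.1 and 22.3 against 29.3 and 29.01 CPM (log2 -0.30, SE 0.12, adjusted p = 0.0397, edgeR). RPL22 stood at 449.5 and 423.8 against 429.6 and 415.1 CPM, with groups that overlapped (log2 0.05, SE 0.06). RPS27L, a p53-responsive copy of RPS27, stood at 14.9 and 13.6 against 16.0 and 20.9 CPM (log2 -0.38, SE 0.15, adjusted p = 0.0493, edgeR), whereas RPS27 rose. Neither call was firm. That of RPL22L1 ended without shControl replicate 1, shControl replicate 2 or shIGF2BP3 replicate 2 (adjusted p = 0.0888, 0.0628 and 0.265, edgeR). That of RPS27L ended without shControl replicate 2, shIGF2BP3 replicate 1 or shIGF2BP3 replicate 2 (adjusted p = 0.459, 0.0727 and 0.207, edgeR).

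The share of the second gene was lower in both knockdown libraries in each of these 5 pairs. RPL22L1 made up 5.29% and 5.01% against 6.39% and 6.53%, RPL26L1 5.48% and 6.25% against 7.02% and 7.40%, and RPS27L 3.77% and 3.52% against 4.64% and 6.67%. RPL7L1 made up 23.6% and 24.2% of its pair against 26.2% and 28.1%. These shares were not tested. RPL3L, the copy of RPL3 found in muscle, had 10 and 0 counts against 9 and 20, at most 0.0339% of its pair.

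**Figure D4:**
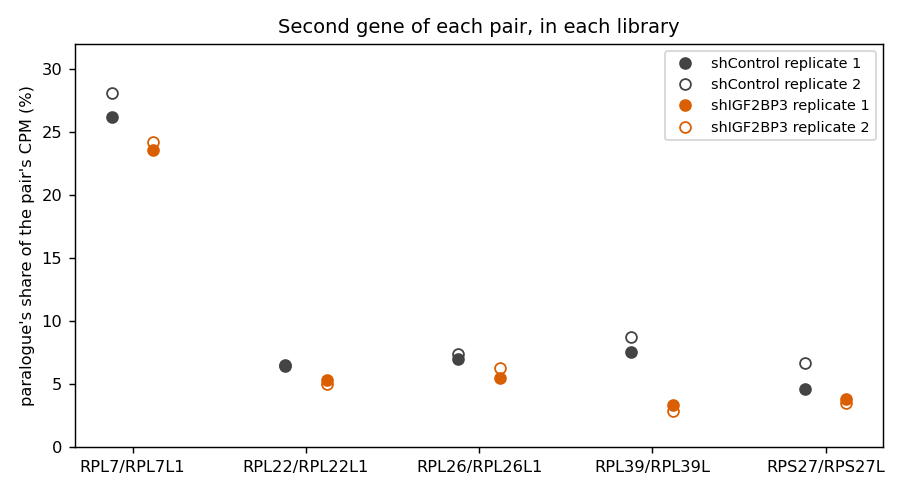
Share (%, y axis) of the second gene in the summed CPM of 5 paralogue pairs, by library. Filled and open circles are replicates 1 and 2, grey for shControl and orange for shIGF2BP3; the drop is widest relative to its control share for RPL39L, from 7.56% and 8.74% to 3.31% and 2.87%.

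Features that the choice by symbol did not use gave little order among the members. The 46 tested members without paralogues that had the tract at an annotated start included 23 lower and 3 higher, with a median of -0.19. The 16 without a tract there included 9 lower and 1 higher, with a median of -0.20. Allowing 5 bases either side, 53 of 62 such members had a tract, so these 16 include genes with one nearby. The split is therefore by exact annotated start and cannot compare genes with and without a tract. RPL34, RPS3, RPSA and RPS25, which fell, and RPS12, RPS27 and RPL10, which rose, all carry the tract in the sequences printed above. RPS7, which fell (log2 -0.67), and RPL15, which rose (log2 0.28), are not printed and had no tract at an annotated start. Members that host a small nucleolar RNA in an intron numbered 28, of which 14 were lower and 2 higher, with a median of -0.16, and the 49 non-paralogues without one had 28 lower, 2 higher and a median of -0.21.

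Across the 77 members without paralogues, Spearman's rho of the fold change was -0.07 with coding length, -0.10 with GC content, -0.10 with the number of exons and 0.01 with the mean log2 CPM. These are descriptions across genes of the same 4 libraries, which are not independent. By level per kilobase of coding sequence in shControl, members without paralogues ran from 443.2 CPM (RPS18) to 6890 CPM (RPL41) once RPS9 was set aside. RPS9, named here after its values were seen, had 331 and 364 counts against 225 and 715, or 26.8 CPM per kilobase in shControl, and its shControl libraries differed from each other more than the groups did.

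Ribosomal proteins have many pseudogenes, whose near-identical sequence could take or lend reads. Together 1599 pseudogene rows named for members held 0.160% to 0.187% of counts per library, and adding each to its parent moved no log2 fold change by more than 0.0376. That step ended the call of RPS28 (adjusted p = 0.0563, edgeR) and brought RPS18 and RPS3A past the test (adjusted p = 0.0429 and 0.0495, edgeR). RPL34 had 28 and 24 pseudogene counts in shIGF2BP3 and 40 and 39 in shControl, few beside its own. For 65 of 84 members the pseudogene rows came to less than 5% of the gene's own counts. Among the other 19, RPL21 (29.05%), RPS28 (25.0%), RPL39 (18.1%), RPL7 (17.4%) and RPS2 (16.4%) are the more uncertain. Small RNA genes aside, no other row overlapped RPL34, RPS3, RPSA, RPL23, RPL41, RPS7 or RPL39L, whereas rows overlapping RPS25 held 2479 and 2366 against 2523 and 2763 counts. Readthrough rows share exons with their parents and were left out of the 85. RPL17-C18orf32 had 0 and 69 counts after knockdown against 823 and 824 with the control hairpin, beside 9744 and 9130 against 9836 and 10506 for RPL17. RPS10-NUDT3 had 0 and 0 against 111 and 190, beside 16737 and 14736 against 18970 and 20899 for RPS10. The groups did not overlap in these 2 rows, whereas RPL36A-HNRNPH2 overlapped, with 8 and 249 against 49 and 419. Readthrough counts were few beside the parent's own for RPS10, but less so for RPL17 in shControl. The fold change printed for RPL17 leaves out the fall of its readthrough row. With readthrough rows added to their parents, the members lower and higher numbered 47 and 4. How reads were split between parents and readthrough rows is uncertain.

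Among subunit genes that the symbol pattern misses, RACK1, a scaffold on the small subunit, and RPL36AL, a copy of RPL36A, were lower (log2 -0.19 and -0.27). FAU, made as a fusion to a ubiquitin-like protein, did not pass, at 0.06.

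The same measures were taken for gene groups that work beside the cytosolic ribosome, without a test between groups. Of 78 mitochondrial ribosomal proteins, 39 were lower and 11 higher, with a median of -0.30, and MRPL10 (log2 -2.04), MRPL20 (-1.61), MRPL11 (-1.55) and MRPL9 (-1.33) were those with the smallest p. Of 20 genes of RNA polymerase I and subunit assembly, 11 were lower and 2 higher, with a median of -0.26. Among them the rRNA methylase FBL fell by 1.75, the pseudouridine synthase DKC1 by 0.73 and NPM1, a nucleolar chaperone, by 0.70 on the log2 scale.

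Other mRNAs known to carry a TOP tract, 27 in all, had 12 lower (44.4%) and 4 higher (14.8%), with a median of -0.14. The share lower over all tested genes was 25.6%. HNRNPA1, a splicing regulator, fell by 1.48, EIF3A, an initiation factor subunit, by 0.75, and the small nucleolar RNA host SNHG1 by 0.92 on the log2 scale. Of 14 genes listed for mTOR signalling, the LARP family or control of translation, 6 were lower (42.9%) and 3 higher (21.4%), with a median of -0.03. The share that was higher is near the 25.9% of all tested genes. LARP1 fell by 0.38, LARP4B by 0.57 and RPTOR, the mTOR complex subunit raptor, by 0.73 on the log2 scale, while the S6 kinase RPS6KB2 rose by 0.71.

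Of 8 chaperones that escort or load single ribosomal proteins, TSR2 and GRWD1 were lower (25.0%, near the 25.6% of all tested genes) and the other 6 did not pass. TSR2, the escort of RPS26, went from 22.5 ± 1.13 to 10.4 ± 1.08 CPM (SD, n = 2 each) and fell by 1.11 on the log2 scale, and RPS26 fell by 0.45. GRWD1, which escorts RPL3, fell by 0.39, as did RPL3 itself. BCCIP, tied to RPL23, stood at 0.02, LTV1, tied to RPS3, at 0.10 and PDCD2, tied to RPS2, at 0.20 on the log2 scale, and none of these 3 passed while RPL23, RPS3 and RPS2 fell.

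**Figure D5:**
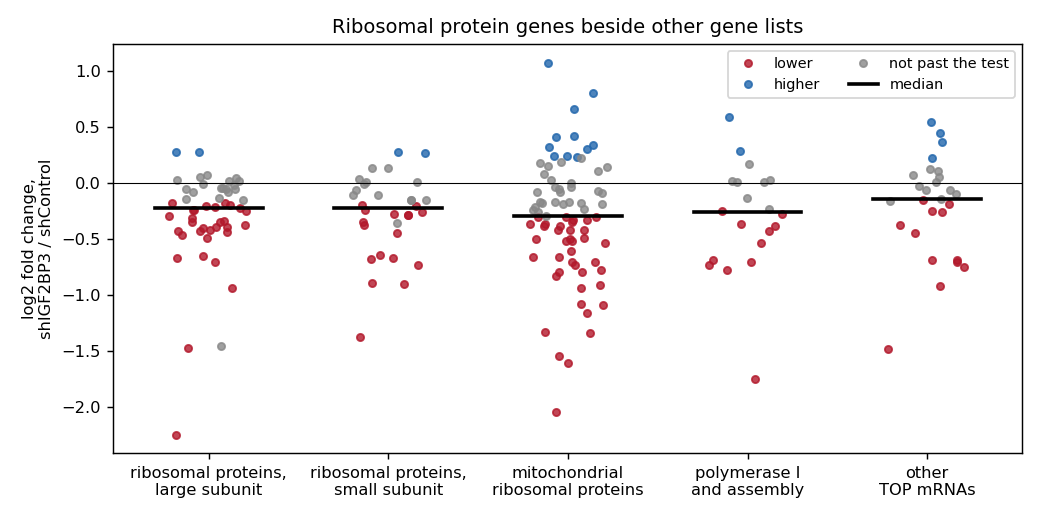
Log2 fold change of shIGF2BP3 over shControl (y axis) of tested genes in 5 lists, coloured by the call, with the median as a black line. RPS4Y1 is left out, and the small subunit line is drawn without it. Over all tested members the ribosomal protein medians are -0.22 (large) and -0.24 (small). They lie between those of other TOP mRNAs (-0.14) and mitochondrial ribosomal proteins (-0.30).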

How the data were processed

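The authors deposited whole-number counts per Ensembl gene for 4 libraries. The submitters' processing notes list HISAT2 2.2.0, StringTie and the build hg38. For the counting rule, annotation and strand setting, the sources used here give nothing, so overlapping and antisense genes are uncertain. The labels do not say that replicates were separate cultures, so p-values measure the spread between libraries, which may be technical. Members and lists were chosen with earlier results of these data known.

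Symbols came from a table of gene names (56105 rows) and GENCODE 29 (486). The other 7661 rows held 1.60% to 1.80% of counts. In edgeR 4.0.16 (R 4.3.3), genes were kept by filterByExpr (smallest count 10), scaled by TMM, and tested over all 4 libraries by the robust quasi-likelihood test with Benjamini-Hochberg adjustment at 0.05. The SE is that of the log2 fold change. Genes named by library were the 8 strongest calls in each direction, the 5 members of most counts, paralogue pairs, and fixed role genes. From each list up to 4 genes of smallest p were named. Some of these genes are not reported here. Alternatives used DESeq2 1.42.0, limma 3.58.1 (voom), other scalings and filters, added rows, a replicate block and each library left out. On simulated data for this comparison over 19581 genes, the test recovered 17 of 67 genes at 1.5-fold, 60 of 67 at 2-fold and 66 of 66 at 4-fold, with 6 false calls.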

Additional observations from a re-analysis of the deposited data

How the results depend on the processing

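The 47 lower members became 37 to 50 under other scalings, filters, tests and added rows, 47 with the replicate block and 38 to 50 with 1 library left out. The 4 higher members became 6 with library totals, 4 to 6 with 1 library left out, and stayed 4 in number otherwise. An older deviance in edgeR, chosen after seeing the data, gave 46 lower. Under all 13 alternatives 36 of the 47 lower and 3 of the 4 higher members kept their call. RPL13A, RPL22L1, RPL27, RPL30, RPL31, RPL37, RPL38, RPL7, RPS14, RPS27L and RPS28 lost it at least once, as did RPS27.

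The median of -0.23 was -0.15 with library totals, a scaling that also moved the median of all genes to 0.09, -0.21 with the replicate block, and -0.27 to -0.20 with 1 library left out. The difference in share of counts was -0.697 to -0.419 points with 1 library left out, and -0.584 to -0.550 with other row sets. Equal replicate numbers are not stated to pair the libraries, and deviations of same-numbered libraries correlated at 0.0208.

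Of the genes named by library, RPL39, RPL5, RPLP1, RPLP2, RPS27A and RPS6 changed sign in at least 1 alternative, never past the test. With library totals RPL39 was 0.0761, RPL5 0.0375, RPLP1 0.0020 and RPS6 0.0196 on the log2 scale. RPL39 was 0.0018 with voom and 0.0046 with no filter. With 1 library left out RPL39 ran from -0.14 to 0.12, RPLP1 from -0.17 to 0.0058, RPLP2 from -0.0338 to 0.0782 and RPS27A from -0.22 to 0.0022.

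With 2 libraries a group, a member without a call is not shown to be unchanged. The simulation gave every gene the same biological spread, so its recovery at 1.5-fold need not hold for these members. Of the lower members, 13 passed with a fall of less than 1.2-fold. Low counts limit RPL3L and RPL10L most, and the spread between its shControl libraries limits RPS9.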
